A study of Mus musculus with 8 samples.

Results

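The fibroblast growth factor (FGF), bone morphogenetic protein (BMP) and transforming growth factor beta (TGF-beta) signalling genes were examined as 57 mouse genes of 18193 with a name on the array. A gene was taken when its symbol was Fgf, Fgfr, Bmp, Smad, Tgfb or Tgfbr followed by a digit, or was Bmpr1a, Bmpr1b or Bmpr2, on a probe set that the platform annotation assigns to 1 gene only. This took 126 probe sets of 45037, a probe set being a group of short oligonucleotides that reads 1 stretch of a transcript. No filter on signal was used, and each gene was read from its brightest probe set. The symbols also took in Bmp2k, Tgfb1i1, Fgfr1op2 and Fgf2os, which carry a family name and are neither ligands nor receptors.

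Mouse total RNA was measured on 8 Affymetrix oligonucleotide arrays covering the mouse genome, of which the titles name 4 Ctrl and 4 Exp, numbered 1 to 4 in each group. The labels state no genotype, strain, treatment, time or age for either group, do not say what the Exp samples underwent, and do not say that the arrays came from separate animals. Every error therefore holds the spread among arrays alone, and part of that may be technical. The labels name the tissue as trigeminal ganglion in the description and as brain and adrenal medulla in the source name.

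All arrays carried the markers of sensory neurons. The mean log2 signal of 7 measured sensory neuron genes lay between 14.1 and 14.3 in the 8 arrays, with the transcription factors Pou4f1 at 16.2 to 16.5 and Isl1 at 15.75 to 15.99. Of 5 central neuron genes, 4 were under the 40th percentile of all probe sets, a log2 signal of 8.45. The other, Neurod6, was well above it, at 11.15 to 12.16 in the 8 arrays. Of 5 chromaffin cell genes, which mark the adrenal medulla, Chga averaged 12.7, Th 12.3, Pnmt 10.1 and Slc18a1 8.72 over the 8 arrays. Dbh, at the 40th percentile on average, was 7.43 to 8.34 in Ctrl and 8.42 to 9.24 in Exp. Groups lay apart in this way for 2.52% of all probe sets. The list had no shared direction, with 2 of 5 genes higher in Exp. Differences, Exp minus Ctrl, were 0.77 (SE 0.28) for Dbh, 0.14 for Slc18a1, -0.079 for Chga, -0.074 for Th and -0.17 for Pnmt. Skeletal muscle genes differed between Exp arrays, with a list mean of 11.2 in Exp 3, 10.1 in Exp 2, and 8.43 to 9.19 in the other arrays. The Schwann cell list, with 4 of 6 genes measured, averaged 13.57 to 13.81 in Ctrl and 13.36 to 13.59 in Exp. In RNA from whole tissue, fewer cells of a type and less RNA per cell cannot be told apart.

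FGFs bind receptor tyrosine kinases, mostly with heparan sulphate as a partner, and signal through the Ras and MAP kinase route; a few FGFs act as hormones, and others stay inside the cell, where they bind sodium channels. BMPs and TGF-betas bind paired serine and threonine kinase receptors, which phosphorylate receptor-regulated Smad proteins. Those Smads join Smad4 and act in the nucleus, and the inhibitory Smads hold the route back. In sensory ganglia BMPs and TGF-betas are known as signals from target tissue and glia, and FGFs as signals for neurogenesis and survival.

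Smad proteins bind short DNA motifs, which were searched in the 300 bases around the starts of the genes, 250 before and 50 after, as given by RefSeq for GRCm38.p6. A window was found for 41 of the 57 genes, with 54 windows in all. The palindrome GTCTAGAC stood in 1 window of the 54 (1.85%), that of the inhibitory Smad gene Smad6, and in 0.213% of all 32851 windows. It is shown with its surroundings, minus strand, chr9:64022045-64022074, capitals marking the palindrome.

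Smad6: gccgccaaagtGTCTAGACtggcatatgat

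GGCGCC, a GC-rich motif that Smads also bind, stood in 13 member windows (24.1%) of 10 genes, against 11.9% of all windows. The median GC content was 63.7% in the member windows and 52.7% in all. CAGAC, the core of the CAGA box, stood on either strand in 22 member windows (40.7%) of 20 genes, against 49.6% of all. The palindrome holds neither of the other motifs, and matches describe letters, not binding. The 250 bases before the starts of Fgf7, Smad9 and Fgf18 follow, because these were the 3 genes with an unadjusted p under 0.05. Capitals mark CAGAC or its reverse complement GTCTG in Fgf7 (plus strand, chr2:126034408-126034657) and Fgf18 (minus strand, chr11:33147401-33147650), and GGCGCC in Smad9 (plus strand, chr3:54755332-54755581).

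Fgf7: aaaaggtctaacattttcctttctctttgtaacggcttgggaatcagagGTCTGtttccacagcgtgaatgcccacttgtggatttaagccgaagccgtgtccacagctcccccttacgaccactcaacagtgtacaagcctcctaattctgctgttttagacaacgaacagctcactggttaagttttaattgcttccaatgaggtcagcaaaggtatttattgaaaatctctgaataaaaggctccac

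Smad9: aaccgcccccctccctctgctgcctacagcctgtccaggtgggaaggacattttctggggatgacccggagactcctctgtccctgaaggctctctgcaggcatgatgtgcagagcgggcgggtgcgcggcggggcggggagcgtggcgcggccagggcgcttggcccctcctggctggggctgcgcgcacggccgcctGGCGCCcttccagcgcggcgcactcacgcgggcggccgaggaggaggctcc

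Fgf18: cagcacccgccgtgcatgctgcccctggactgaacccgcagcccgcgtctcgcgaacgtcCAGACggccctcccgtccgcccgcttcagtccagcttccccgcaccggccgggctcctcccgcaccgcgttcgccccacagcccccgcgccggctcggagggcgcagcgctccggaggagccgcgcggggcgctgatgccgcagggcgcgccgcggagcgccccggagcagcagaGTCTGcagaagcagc

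None of the 3 motifs searched stood in all of these stretches: Fgf7 held 1 CAGAC in either orientation, Fgf18 held 2 and Smad9 held 0. GC content was 43.6% before Fgf7, 73.2% before Smad9 and 77.2% before Fgf18.

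No member gene differed between Exp and Ctrl at a 5% false discovery rate by limma, and 0 of all 45037 probe sets did (0.0%). At an unadjusted p under 0.05, 3 of 57 genes passed (5.26%), against 2221 of all probe sets (4.93%), a share near the background. Fgf7 and Smad9 were higher in Exp and Fgf18 lower. The 4 Exp values lay apart from the 4 Ctrl values for 1 gene, Fgf7 (1.75%), against 1137 of all probe sets (2.52%). The median difference, Exp minus Ctrl, was 0.025 on the log2 scale over the 57 genes and -0.004 over all probe sets, with 31 genes higher and 26 lower.

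The 95% confidence interval of each difference gives the range of change compatible with the arrays, taking each probe set alone. It is not the smallest change that the test could call, because calls were adjusted over all probe sets. The middle Smad3 probe set by brightness had a difference of 1.30, with an interval from 0.81 to 1.78, and was not called. For 46 of 57 genes (80.7%) the interval lay inside a doubling in either direction, as it did for 30453 of all probe sets (67.6%). Of the 37 genes above the 40th percentile 36 had such an interval, against 24826 of 27022 probe sets above it (91.9%), the exception being Fgf1. Of the 20 genes under it, 10 did. For Fgf1, Fgf2, Fgf6, Fgf15, Fgf20, Fgf21, Fgf22, Bmp8a, Bmp8b, Tgfb1 and Smad9 the interval reached past a doubling or a halving.

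**Figure D1:**
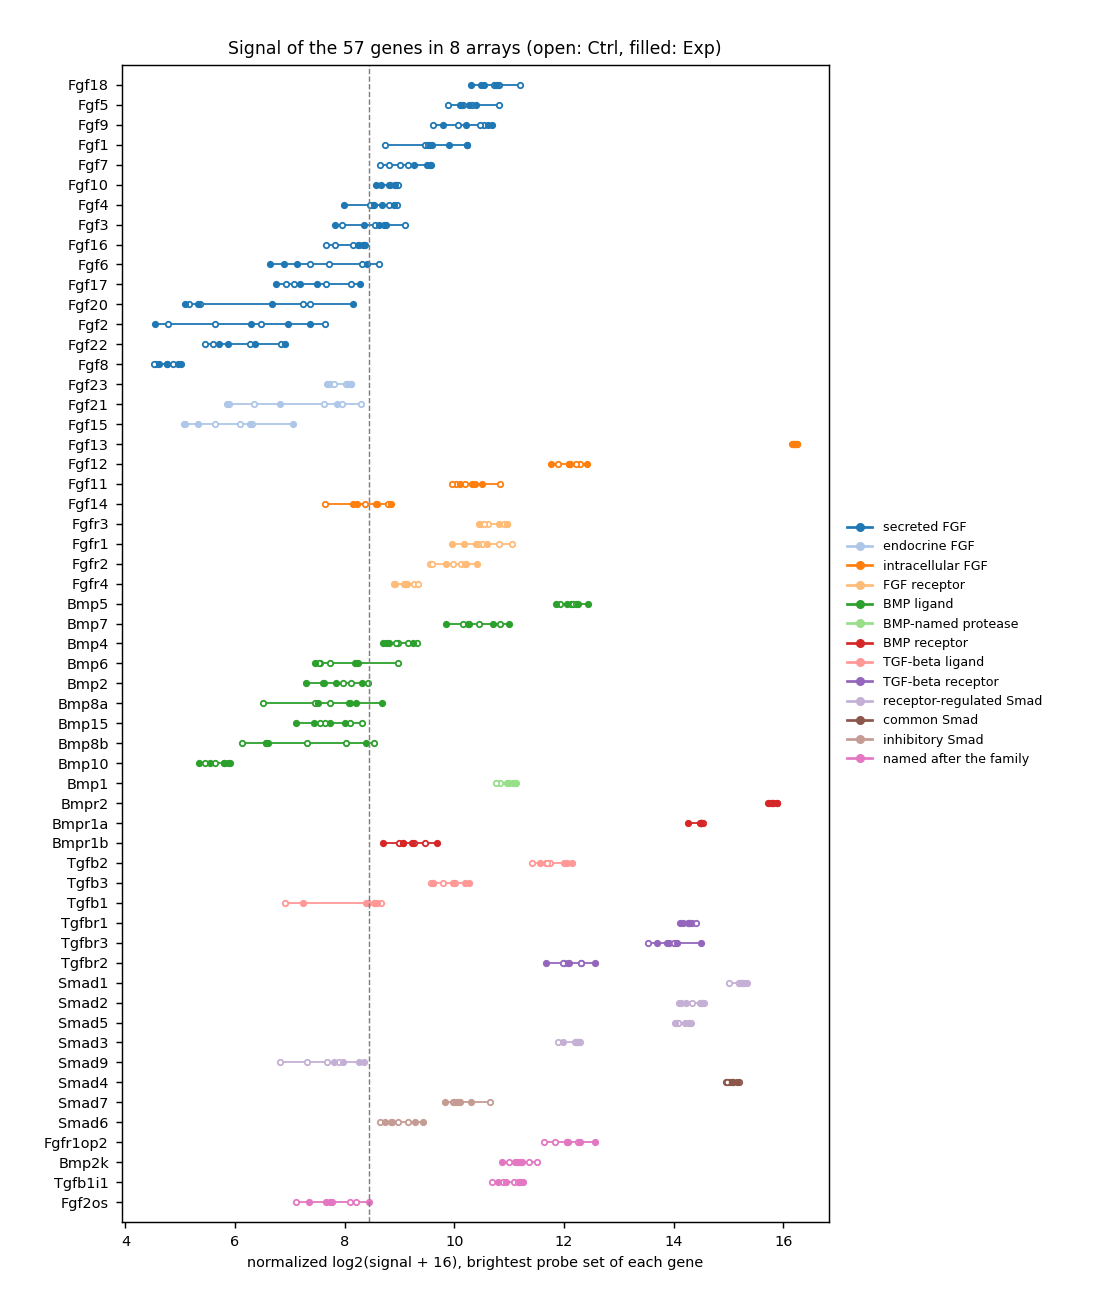
Normalized log2 signal of the brightest probe set of each of the 57 genes in the 8 arrays, grouped by role. Open points are Ctrl, filled points Exp, lines join the lowest and highest array, and the dashed line is the 40th percentile of all probe sets (8.45). Fgf13, Bmpr2, Smad1 and Smad4 sit at the right with narrow ranges, and most FGF ligands sit near or left of the dashed line.

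The brightest member probe set was that of Fgf13, an FGF homologous factor that stays inside the cell and binds voltage-gated sodium channels. Its log2 signals were 16.24, 16.24, 16.20 and 16.17 in Ctrl 1 to 4 and 16.21, 16.20, 16.23 and 16.18 in Exp 1 to 4. The groups overlapped, and the difference was -0.007 with a 95% interval of -0.22 to 0.21. Since probe sets bind with different strength, the order of signals is not an order of transcript number. Of all probe sets on the array 99.6% were dimmer than that of Fgf13.

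The other intracellular FGFs also had intervals inside a doubling, 4 of 4 in all. Fgf12 ranged from 11.76 to 12.42 with a difference of -0.026, SE 0.17. Fgf11 ranged from 9.95 to 10.82, with a difference of 0.076, SE 0.21. Fgf14, whose mutation causes a spinocerebellar ataxia in people, lay across the 40th percentile at 7.65 to 8.84. Its difference was 0.097, SE 0.28.

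Among the 15 secreted FGFs, 8 were higher and 7 lower in Exp, and the median difference was 0.025. Only 8 of them were above the 40th percentile. Fgf7, the keratinocyte growth factor made by mesenchymal cells, had log2 signals of 9.16, 9.01, 8.80 and 8.64 in Ctrl 1 to 4 and 9.57, 9.26, 9.55 and 9.49 in Exp 1 to 4. Every Exp array was above every Ctrl array, with the narrowest gap between Ctrl 1 and Exp 2. The means were 8.90 ± 0.23 in Ctrl and 9.47 ± 0.14 in Exp (SD, n = 4 each), a fold of 1.48. The difference of 0.57 (SE 0.15) had an adjusted p of 0.997 by limma and did not pass. A second, dimmer Fgf7 probe set differed the other way, by -0.16 (SE 0.19).

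Fgf18, a ligand best known from bone and cartilage growth, stood at 10.72, 10.80, 10.80 and 11.20 in Ctrl 1 to 4 and at 10.53, 10.75, 10.31 and 10.49 in Exp 1 to 4. Exp 2 lay within the Ctrl range and the other Exp arrays below it. The difference was -0.36 (SE 0.15), with an adjusted p of 0.997 by limma. Fgf18 is read by 1 probe set only, so no second reading of the transcript was at hand.

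None of the remaining secreted FGFs above the 40th percentile had an unadjusted p under 0.05 by limma. Fgf5 (9.88 to 10.82), a regulator of the hair cycle, differed by -0.074, SE 0.20. Fgf9, a ligand known from glia and developing gonad, ranged from 9.61 to 10.69 and differed by 0.15, SE 0.28. Fgf1, which activates every FGF receptor, ranged from 8.73 in Ctrl 4 to 10.24 in Exp 4 and differed by 0.34, SE 0.31. Ctrl 2 was nearly as high as Exp 4, so the groups overlapped. Fgf10, the mesenchymal partner of Fgf7 at the receptor Fgfr2, differed by -0.16, SE 0.12. Fgf3 and Fgf4, ligands of the early embryo, differed by -0.19 (SE 0.29) and -0.16 (SE 0.22).

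Under the 40th percentile lay Fgf2, Fgf6, Fgf8, Fgf16, Fgf17, Fgf20 and Fgf22. Fgf2, the basic FGF, ranged from 4.54 to 7.65, and each group held low and high arrays. Fgf20 spread from 5.09 to 8.14, with high arrays in both groups. Fgf8, an organiser of the midbrain and branchial arches, was the dimmest member at 4.51 to 5.01, with a difference of 0.17, SE 0.14. For Fgf6, known from muscle, the difference was -0.74 with an SE of 0.43, and Exp 3, the array with the highest muscle list, stood at 6.90. The relation of Fgf6 to muscle content was not tested. Levels near the pseudocount understate any fold.

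The endocrine FGFs Fgf15, Fgf21 and Fgf23, hormones of gut, liver and bone, were all under the 40th percentile. Fgf21 was the member with the largest negative difference, -0.95, and its SE of 0.56 left an interval from -2.25 to 0.35. Its 4 Ctrl values were 7.96, 8.30, 6.35 and 7.61, and its Exp values 6.81, 5.84, 5.90 and 7.85, so the groups overlapped. Fgf23 ranged only from 7.68 to 8.12. Of the cofactors these hormones need, Kl differed by 0.26 (SE 0.33) and Klb by -0.43 (SE 0.26).

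The 4 FGF receptors were all above the 40th percentile, with intervals inside a doubling and no call. Fgfr1, a receptor found widely in nervous tissue, had 10.51, 10.82, 10.43 and 11.05 in Ctrl 1 to 4 and 9.95, 10.17, 10.40 and 10.59 in Exp 1 to 4. Exp 1, Exp 2 and Exp 3 lay below every Ctrl array, and Exp 4 within their range. The difference was -0.42 (SE 0.20), adjusted p 0.997 by limma. The other Fgfr1 probe sets differed in the opposite direction, by 0.13 and 0.25.

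Fgfr2, the receptor for Fgf7 and Fgf10 in its epithelial splice form, read 10.12, 9.55, 9.97 and 9.59 in Ctrl and 9.84, 10.41, 10.21 and 10.19 in Exp. Ctrl 1 and Ctrl 3 lay within the Exp range, and Ctrl 2 and Ctrl 4 below it. The difference was 0.35 (SE 0.18), adjusted p 0.997 by limma, and the other Fgfr2 probe sets gave -0.21 (SE 0.21) and 0.22 (SE 0.65). Fgfr3, the receptor mutated in achondroplasia, read 10.46, 10.91, 10.61 and 10.54 in Ctrl and 10.97, 10.46, 10.80 and 10.97 in Exp. Exp 1 and Exp 4 lay above all Ctrl arrays and Exp 2 just below them, with a difference of 0.17 (SE 0.16). Fgfr4, the liver receptor of Fgf15 in bile acid control, differed by -0.10 (SE 0.13).

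**Figure D2:**
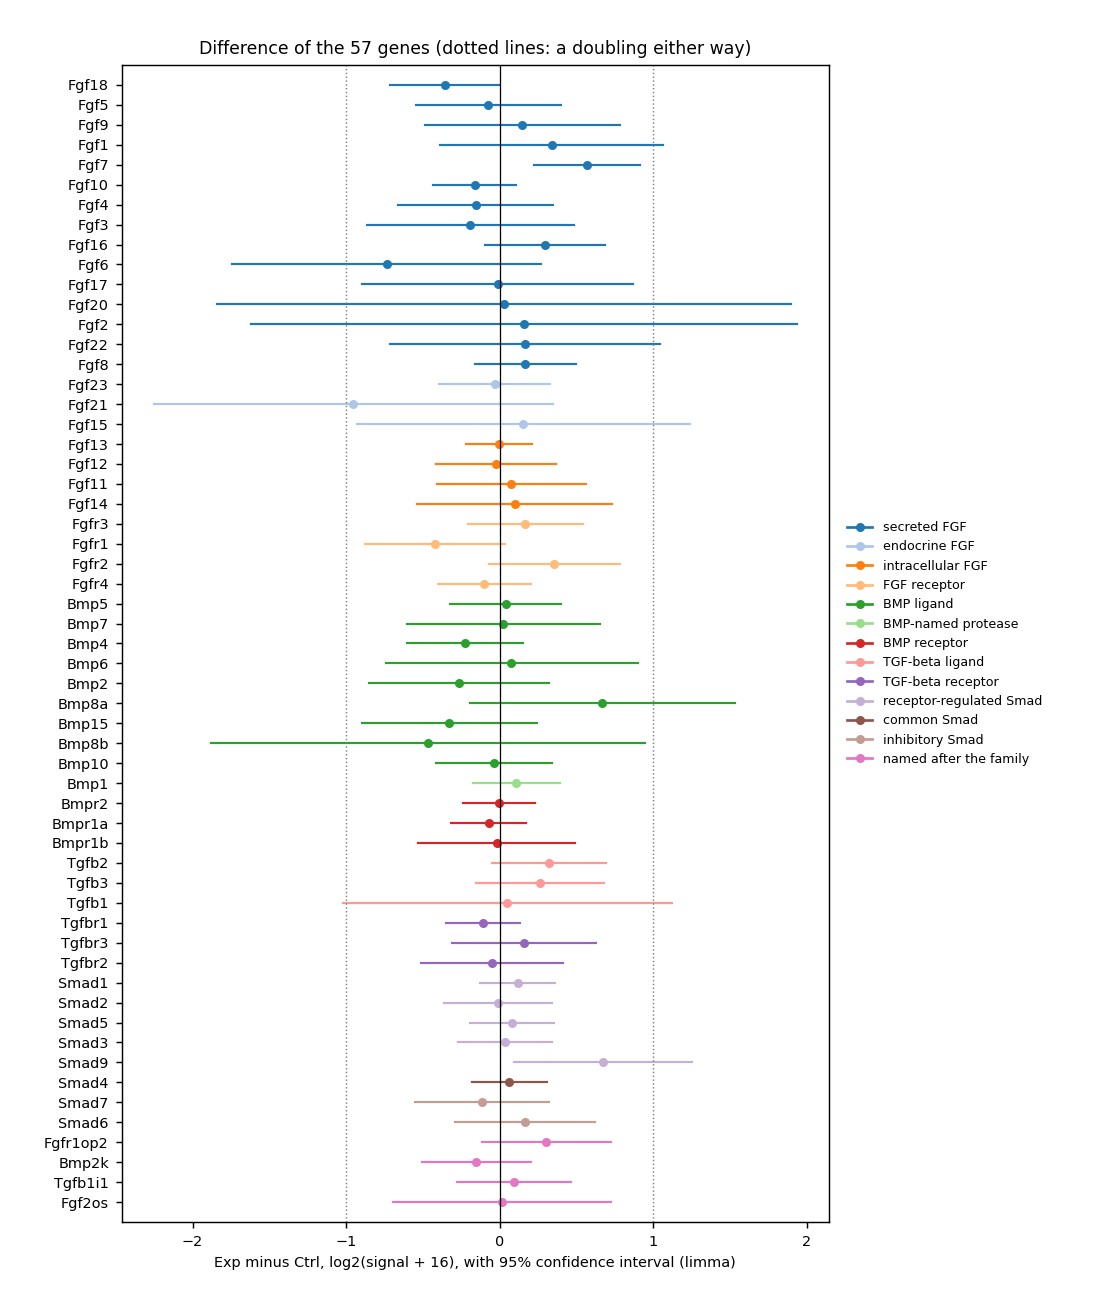
Log2 difference, Exp minus Ctrl, of the brightest probe set of each gene (points) with its 95% confidence interval from limma (lines), by role. Dotted lines mark a doubling in either direction. Fgf7 and Smad9 have intervals wholly above 0 and Fgf18 one wholly below. The intervals of Smad1, Smad4, Bmpr2, Bmpr1a and Tgfbr1 are short and cross 0, and those of Bmpr1b and Tgfbr2 are wider and also cross 0.

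The BMP ligands comprised 9 genes, 4 higher and 5 lower, with a median difference of -0.039. Bmp5, a ligand of skeletal and limb patterning, was the brightest of them. It read 12.13, 11.93, 12.16 and 12.22 in Ctrl 1 to 4 and 12.05, 12.44, 11.84 and 12.26 in Exp 1 to 4, so that Exp held both the highest and the lowest array. Its difference was 0.038, SE 0.15. Bmp7 had the same order among the Exp arrays, 10.26, 10.996, 9.85 and 10.71, against 10.16, 10.46, 10.26 and 10.84 in Ctrl, and a difference of 0.024, SE 0.27. The dimmer probe sets of Bmp5 differed by -0.40 (SE 0.23) and -0.845 (SE 0.41). Those of Bmp7 differed by -0.68 (SE 0.425) and -0.37 (SE 0.42). In both dimmer Bmp7 probe sets Exp 3 was instead the highest Exp array. Bmp4, the ventral and epidermal ligand of the embryo, differed by -0.22 (SE 0.16).

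Bmp2, Bmp6, Bmp8a, Bmp8b, Bmp10 and Bmp15 lay under the 40th percentile. Bmp8a had the largest positive difference among the ligands, 0.67, with an SE of 0.37 and overlapping groups. Bmp2, the close relative of Bmp4, differed by -0.27 (SE 0.25). Bmp15, an oocyte factor, differed by -0.33 (SE 0.25), and the cardiac ligand Bmp10 by -0.039 (SE 0.16). Bmp1 is no BMP ligand but the protease that trims procollagen and cleaves chordin. It ranged from 10.75 to 11.13 and differed by 0.11, SE 0.12.

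The BMP receptors Bmpr2 and Bmpr1a were among the brightest members, and the differences of all 3 receptors were below 0 by less than their SE. Bmpr2, the type II receptor mutated in familial pulmonary hypertension, read 15.78, 15.89, 15.81 and 15.73 in Ctrl 1 to 4 and 15.80, 15.80, 15.88 and 15.71 in Exp 1 to 4. The difference was -0.005 (SE 0.10), with an interval from -0.24 to 0.23. Bmpr1a, a type I receptor, read 14.49, 14.54, 14.50 and 14.49 in Ctrl and 14.50, 14.47, 14.26 and 14.50 in Exp. Exp 3 alone stood below the rest, and the difference was -0.072 (SE 0.10). Bmpr1b, the type I receptor of cartilage, read 9.26, 9.46, 8.98 and 9.06 in Ctrl and 9.07, 9.68, 8.69 and 9.23 in Exp. Both extremes were Exp arrays, and the difference was -0.019 (SE 0.22).

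The 3 TGF-beta ligands were each higher in Exp without passing the test, with a median difference of 0.263. Of all probe sets, 49.3% were higher. Tgfb2, the ligand most linked to neurons and glia, read 11.73, 11.41, 11.66 and 11.68 in Ctrl and 12.15, 12.05, 11.56 and 12.01 in Exp. Exp 3 lay within the Ctrl range and the other Exp arrays above it. The difference was 0.32 (SE 0.16), adjusted p 0.997 by limma. The other Tgfb2 probe sets were near 0, at 0.033 (SE 0.17), 0.081 (SE 0.30) and -0.016 (SE 0.32). Tgfb3, needed for palate fusion, differed by 0.26 (SE 0.18). Tgfb1, the ligand of immune cells and platelets, differed by 0.049 (SE 0.46) at a signal under the 40th percentile.

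TGF-beta receptors showed no shared direction on their brightest probe sets. Tgfbr1, the type I receptor, read 14.33, 14.41, 14.26 and 14.28 in Ctrl and 14.28, 14.29, 14.16 and 14.11 in Exp, a difference of -0.11 (SE 0.10). Exp 3 and Exp 4 lay below the Ctrl arrays and Exp 1 and Exp 2 among them. Tgfbr2, the type II receptor that binds ligand first, read 12.30, 11.998, 11.99 and 12.31 in Ctrl and 12.08, 12.56, 11.67 and 12.08 in Exp. Exp 2 was its highest array and Exp 3 its lowest, and the difference was -0.049 (SE 0.20). Tgfbr3, the co-receptor betaglycan, read 13.91, 14.05, 13.53 and 14.01 in Ctrl and 14.05, 14.49, 13.87 and 13.70 in Exp. Exp 2 was high and Ctrl 3 low, and the difference was 0.16 (SE 0.20). Further probe sets of these receptors all lay under the 40th percentile. They differed by 0.16 (SE 0.215) and 0.48 (SE 0.23) for Tgfbr1 and by -0.22 (SE 0.17) and -1.17 (SE 0.55) for Tgfbr2. That of Tgfbr3 differed by 1.25 (SE 0.50).

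The Smads that receptors phosphorylate were bright, with intervals inside a doubling, except for Smad9. Smad1, which carries BMP signals, read 15, 15.26, 15.19 and 15.19 in Ctrl and 15.34, 15.29, 15.23 and 15.24 in Exp, a difference of 0.12 (SE 0.10). Ctrl 2 lay within the Exp range and the other Ctrl arrays below it. Smad5, its partner, read 14.08, 14.05, 14.28 and 14.08 in Ctrl and 14.02, 14.20, 14.28 and 14.31 in Exp, a difference of 0.08 (SE 0.12). Its groups overlapped.

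Smad2, which carries TGF-beta and activin signals, read 14.48, 14.50, 14.34 and 14.13 in Ctrl and 14.10, 14.23, 14.56 and 14.51 in Exp, a difference of -0.012 (SE 0.15). Exp 1, Exp 2 and Ctrl 4 were its lower arrays. Smad4, the partner that all receptor-regulated Smads share, read 15.19, 14.95, 14.999 and 14.98 in Ctrl and 15.06, 15.08, 15.07 and 15.15 in Exp. Ctrl 1 was its highest array and the other Ctrl arrays its lowest, with a difference of 0.062 (SE 0.10).

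Smad9, also known as Smad8, carries BMP signals like Smad1 and Smad5 and has 1 probe set, under the 40th percentile. It read 7.31, 7.68, 7.89 and 6.82 in Ctrl and 7.97, 7.81, 8.26 and 8.35 in Exp. Ctrl 3 lay within the Exp range and the other Ctrl arrays below it. The means were 7.42 ± 0.47 and 8.10 ± 0.25 (SD, n = 4 each), and the difference of 0.67 (SE 0.25) had an adjusted p of 0.997 by limma.

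The inhibitory Smads, which BMP and TGF-beta signals induce, had differences of opposite sign on their brightest probe sets, both smaller than their SE. Smad6 read 8.87, 8.64, 8.96 and 9.16 in Ctrl and 8.85, 9.29, 9.43 and 8.73 in Exp, a difference of 0.17 (SE 0.20). Exp 2 and Exp 3 lay above all Ctrl arrays, Exp 1 and Exp 4 among them. Smad7 read 9.98, 9.99, 10.10 and 10.65 in Ctrl and 10.09, 9.83, 10.03 and 10.31 in Exp, a difference of -0.12 (SE 0.19). Ctrl 4 was its highest array and Exp 2 its lowest. A second, slightly dimmer Smad7 probe set differed by 0.093 (SE 0.20), the same sign as Smad6.

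**Figure D3:**
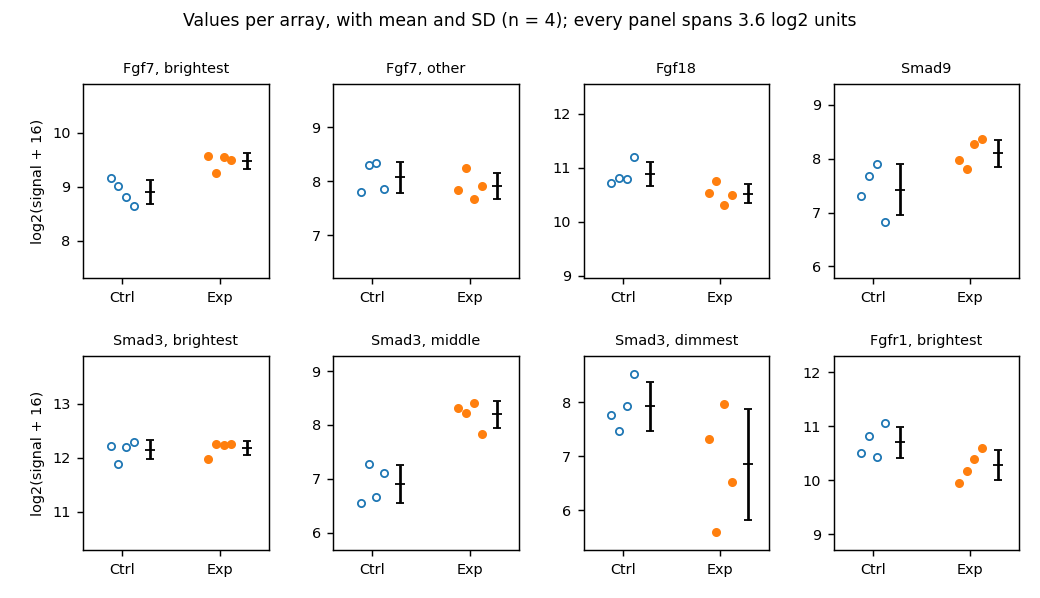
Log2(signal + 16) per array for Fgf7 (both probe sets), Fgf18, Smad9, Smad3 (3 probe sets) and Fgfr1, Ctrl open and Exp filled, with mean and SD (n = 4) beside them and the same axis span in each panel. Exp lies wholly above Ctrl for the brightest Fgf7 probe set and for the middle Smad3 probe set by brightness, and the groups overlap in the other panels.

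Smad3, the other TGF-beta Smad, gave different answers on its 3 probe sets. The brightest read 12.22, 11.89, 12.20 and 12.29 in Ctrl and 11.99, 12.26, 12.24 and 12.26 in Exp, with a difference of 0.034 (SE 0.13). The next brightest, which lay under the 40th percentile, read 6.56, 7.29, 6.66 and 7.11 in Ctrl and 8.32, 8.22, 8.41 and 7.84 in Exp. Every Exp array was above every Ctrl array there, with a difference of 1.30 (SE 0.21), a fold of 2.46.

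The adjusted p of that probe set was 0.414 by limma, and it was the largest positive difference among the 126 member probe sets. The dimmest Smad3 probe set read 7.76, 7.46, 7.93 and 8.52 in Ctrl and 7.32, 5.59, 7.96 and 6.52 in Exp, a difference of -1.07 (SE 0.50). The signs of the dim probe sets were thus opposite while the bright one stayed near 0. Both dim probe sets lay under the 40th percentile, and neither was called. Probe sets of a gene can read different ends or splice forms of its transcripts, and whether either holds here was not tested.

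Of the 37 genes with more than 1 probe set, 24 had probe sets of both signs (64.9%), near the 61.4% of all 9010 named genes with more than 1 probe set. Some of these spans were small, such as that of Bmpr2, from -0.005 to 0.088. Over all 126 probe sets, 8 had an unadjusted p under 0.05 (6.35%) and 2 had groups that did not overlap (1.59%), near the shares of 4.93% and 2.52% for all probe sets. Bmp2k, a kinase induced by BMP2, was the only gene with such a p in both directions. Its middle probe set by brightness read 9.73, 9.18, 9.12 and 10.49 in Ctrl and 10.07, 10.36, 10.58 and 10.61 in Exp, a difference of 0.78 (SE 0.31). The groups overlapped. The dimmest read 6.503, 8.66, 8.35 and 7.85 in Ctrl and 7.12, 6.48, 7.16 and 6.16 in Exp, a difference of -1.11 (SE 0.48), while the brightest gave -0.15 (SE 0.15). The others among the 8 were further, dim probe sets of Fgf14 (0.88, SE 0.34) and Tgfbr3 (1.25, SE 0.50). Members whose probe sets agreed closely included Smad5, whose 3 differences lay between 0.080 and 0.095.

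Of the remaining family-named genes, Fgfr1op2 differed by 0.30 (SE 0.18). The focal adhesion adaptor Tgfb1i1, also called Hic-5, differed by 0.091 (SE 0.16). Fgf2os, the transcript opposite Fgf2, differed by 0.015 (SE 0.31). None of the 4 genes of this kind, Bmp2k included, had a call or groups apart on its brightest probe set.

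**Figure D4:**
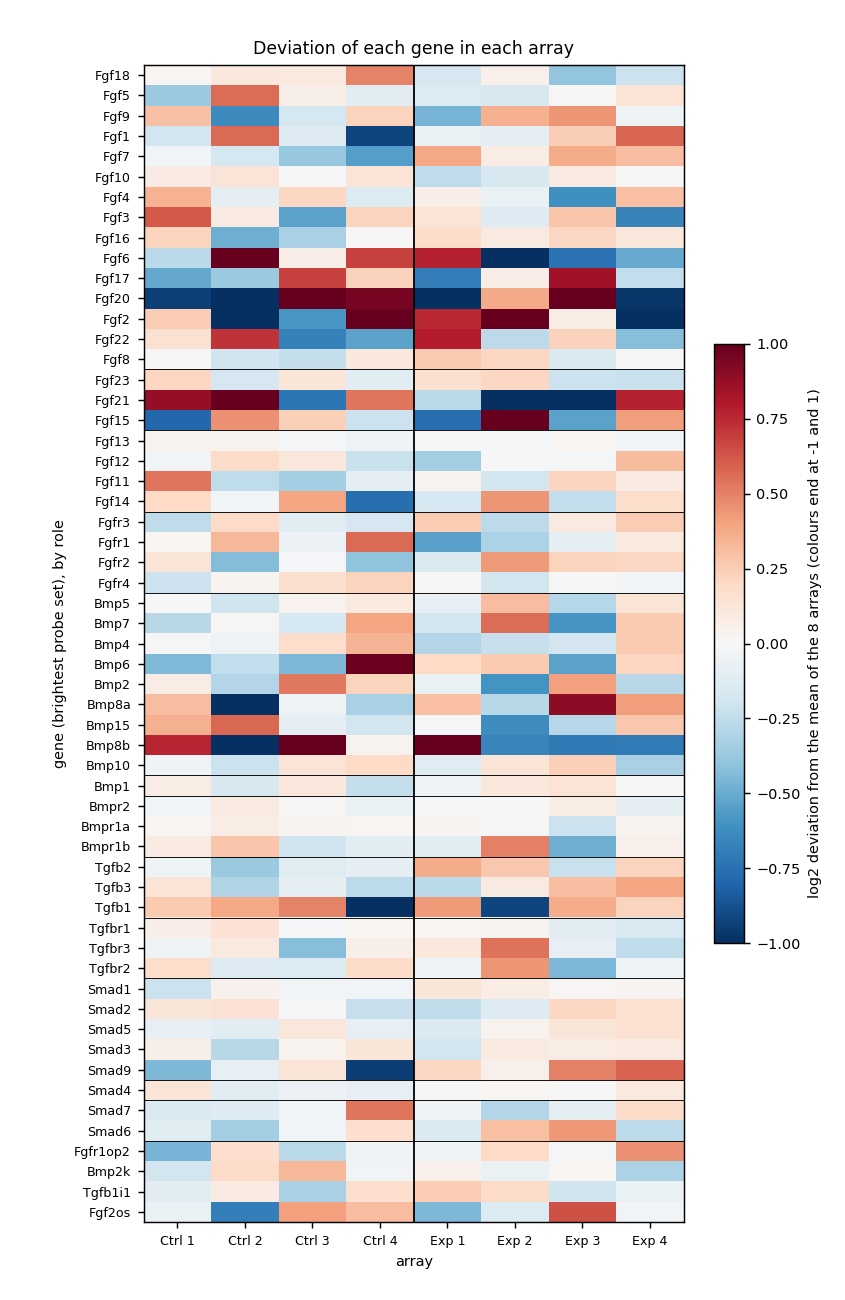
Log2 deviation of each gene from its mean over the 8 arrays, one column per array and one line per gene, ordered by role, with colours ending at -1 and 1. Strong colours sit in dim genes such as Fgf20, Fgf2, Fgf21 and Bmp8b and scatter over both groups, and the bright receptors and Smads stay pale.

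No array carried the members up or down as a set. The median deviation of the 57 genes lay between -0.052 in Ctrl 2 and 0.080 in Exp 4. The fibroblast and meninges list, 7 of 7 genes measured, averaged 14.11 in Exp 2, 13.28 in Exp 3 and 13.38 to 13.78 in the other arrays. The members were read for the same order after their values had been seen. Exp 2 was the highest and Exp 3 the lowest Exp array for 7 of 57 genes (12.3%), Bmp5, Bmp6, Bmp7, Bmpr1b, Fgf14, Fgf18 and Tgfbr2, against 9.1% of all probe sets. The skeletal muscle list did not have this order, with Exp 3 above Exp 2. The part of these cell type lists in the members' values was not tested.

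The signalling routes were then read from 117 measured genes of 131 listed beside the members. None was called at a 5% false discovery rate. An unadjusted p under 0.05 was found for 6 (5.13%), 4 higher and 2 lower, against 4.93% of all probe sets, and 2 had groups that did not overlap (1.71%), against 2.52%. The median difference was 0.011.

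Tab1, the adaptor that activates the kinase TAK1 below TGF-beta and BMP receptors, read 10.39, 10.49, 10.37 and 10.46 in Ctrl and 10.67, 10.75, 10.70 and 10.79 in Exp. All Exp arrays were above all Ctrl arrays, with a difference of 0.30 (SE 0.098), adjusted p 0.997 by limma. A dimmer Tab1 probe set gave 0.019 (SE 0.40), with overlapping groups. Etv5, a transcription factor induced by FGF signals, read 11.88, 12.01, 11.91 and 11.93 in Ctrl and 12.18, 12.07, 12.22 and 12.09 in Exp. Its groups did not overlap either, and the difference was 0.20 (SE 0.099), with other Etv5 probe sets at -0.18 and -0.036.

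Gpc3, a glypican that binds morphogens at the cell surface, read 10.40, 10.15, 10.11 and 10.43 in Ctrl and 10.76, 10.87, 10.35 and 10.98 in Exp, a difference of 0.47 (SE 0.17). Only Exp 3 lay within the Ctrl range. Itgb8, the integrin subunit that helps release active TGF-beta, read 12.89, 12.33, 12.23 and 12.44 in Ctrl and 12.24, 12.22, 11.42 and 11.85 in Exp. Exp 1 was within the Ctrl range and the other Exp arrays below it, with a difference of -0.54 (SE 0.23). Tll1, a relative of the protease Bmp1, read 7.46, 7.67, 7.36 and 7.38 in Ctrl and 7.76, 7.55, 7.93 and 8.16 in Exp, a difference of 0.39 (SE 0.16). Exp 2 lay within the Ctrl range and the other Exp arrays above it. Tll1 lay under the 40th percentile.

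The ligand Nodal read 8.59, 8.06, 8.26 and 8.48 in Ctrl and 8.57, 8.59, 9.32 and 8.93 in Exp, a difference of 0.50 (SE 0.21). Exp 3 and Exp 4 lay above all Ctrl arrays, Exp 1 and Exp 2 among them. A far dimmer Nodal probe set gave 0.92 (SE 0.65), with overlapping groups. The Nodal co-receptor Tdgf1 lay under the 40th percentile. It differed in the other direction, with 8.31, 7.28, 7.56 and 7.86 in Ctrl and 6.33, 7.38, 6.16 and 7.41 in Exp, a difference of -0.93 (SE 0.36). Exp 2 and Exp 4 lay within the Ctrl range of Tdgf1, and Exp 1 and Exp 3 below it. These 6 genes and Etv5 each had an adjusted p of 0.997 by limma.

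Genes that report on the activity of the routes had no call. Of 17 BMP and TGF-beta targets 0 had an unadjusted p under 0.05 (0.0%, against 4.93% of all probe sets), and their median difference was 0.019. A list this short can hold 0 such genes at the share of all probe sets, so the count does not describe the activity of a route. The BMP targets Id1, Id2, Id3 and Id4, which block basic helix-loop-helix factors, differed by -0.24 (SE 0.17), 0.014 (SE 0.15), -0.27 (SE 0.16) and 0.18 (SE 0.11). Of 14 FGF feedback genes and targets 0 had such a p (0.0%), with a median of 0.015, and the same limit holds. Groups lay apart for 1 of the 14, Etv5 (7.14%, against 2.52% of all probe sets). Dusp6, the phosphatase that dampens ERK, differed by 0.16 (SE 0.14), and the FGF antagonist Spry2 by -0.25 (SE 0.23).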

How the data were processed

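The authors deposited 1 linear intensity value per probe set and array; no source used here states how it was computed or gives detection calls. Trimmed mean signals were equal in all arrays (2492 to 2494), so differences in total signal cannot be seen, and array medians were 478 to 553. Signals were taken as log2(signal + 16) and quantile normalized. The 2 groups were tested with limma 3.58.1 under R 4.3.3 (lmFit, eBayes, two-sided) over 45037 probe sets, 64 controls left out, with Benjamini-Hochberg adjustment over all of them. Folds are those of signal + 16. The script was tested on simulated data. Names came from the platform annotation, and all 126 member probe sets matched RefSeq (GRCm38.p6) by gene ID with 0 symbols changed. Members and gene lists were chosen with earlier results of these data known. By rule, values in every array are given for the 12 brightest members, members with an unadjusted p under 0.05 or groups apart, member probe sets with one under 0.01, and, per role, the 3 receptors or Smads of smallest p; of the other pathway genes, for the 6 of smallest p and those with groups apart. Tgfb2, Fgf21 and Bmp7, the dimmest Smad3 probe set and the dimmer Bmp2k probe sets were added after their values were seen. Alternatives were other pseudocounts, normalizations, variance models, a filter at the 40th percentile, a mean over probe sets, a replicate block and leaving out arrays.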

Additional observations from a re-analysis of the deposited data

Results flagged for a closer look

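In the groups of 4 arrays, 8 of 134 groups of member and other named values examined held an array far from the other 3, where chance gives about 6.7. No explanation was tested for any of them. Bmpr1a stood at 14.256 in Exp 3, with the other Exp arrays at 14.474 to 14.502. Smad5 stood at 14.277 in Ctrl 3, against 14.046 to 14.083. Smad3 on its brightest probe set was 11.987 in Exp 1, against 12.240 to 12.258. These 3 genes are bright, and the gaps are small.

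The ligands set apart are dim. Tgfb1 stood at 6.912 in Ctrl 4, against 8.423 to 8.659 in the other Ctrl arrays, and at 7.240 in Exp 2, against 8.381 to 8.586. Bmp6 was 8.969 in Ctrl 4, against 7.538 to 7.737, and 7.454 in Exp 3, against 8.189 to 8.249. Bmp8b was 8.393 in Exp 1, against 6.562 to 6.606. Tgfb1 had 1 such low array in each group.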

How the results depend on the processing

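No member gene was called under any of the alternatives run; over all probe sets 1 was called with the filter at the 40th percentile, 1 with a trended variance and 2 without Exp 2. The number of genes with groups that did not overlap (1) was 2 without quantile normalization, 0 for the mean over a gene's probe sets, 5 without both Exp 2 and Exp 3 (chosen after seeing the data; 8.77%, against 13.3% of all probe sets), and 1 to 5 when 1 array was left out (1.75% to 8.77%, against 4.69% to 6.72%). The number with an unadjusted p under 0.05 (3) was 1 to 5 when 1 array was left out, lowest without Ctrl 4 (1.75%, against 4.55% of all probe sets) and highest without Exp 1 (8.77%, against 5.01%). The median member difference (0.025) was -0.029 without Exp 2 and 0.070 without Exp 1, the limits over single arrays, and -0.018 without both Exp 2 and Exp 3. The other pathway genes with such a p (6) numbered 3 with the replicate block and 3 to 6 when 1 array was left out. With the replicate number as a block, 3 members had such a p, 1 of them shared with the fit without it. Arrays with the same number did not deviate together over all probe sets (correlations -0.0421 to 0.0131). The labels do not say what the numbers mean, and these correlations cannot tell whether samples were collected in pairs. Among the 18 alternatives that kept single probe sets, the brightest Fgf7 probe set was higher in Exp in all (0.48 to 0.65). Fgf18 was lower in all 18 (-0.44 to -0.25). The dimmer Fgf7 probe set was lower in all 17 that measured it (-0.27 to -0.07). With the mean over a gene's probe sets, Fgf7 had neither an unadjusted p under 0.05 by limma nor groups apart. Such a p was then found for 4 members (7.02%, against 5.03% of all tested), Fgf18, Smad9, Tgfbr2 and Tgfbr3. The middle Smad3 probe set by brightness was higher in all 17 that measured it (1.02 to 1.44), lowest adjusted p 0.28 by limma. The brightest Smad3 probe set kept its sign in 15 of 18. Signal limits the dim genes: the median SE was 0.364 for the 20 members under the 40th percentile and 0.163 for the 37 above it.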
